A study of Mus musculus with 14 samples.

Results

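The contacts of gene promoters in the developing mouse external ear were compared between the embryonic stages E12.5 and E14.5 (days after conception), over 2 libraries of E12.5 pinna and 2 of E14.5 pinna, out of 14 libraries in the series. The comparison took the pairs of fragments on the same chromosome that were listed for these 4 libraries. Of 409471 such pairs listed in any of the 4, 130234 were listed in at least 2. A pair listed in both E14.5 libraries and in no E12.5 library is called gained, and 14634 pairs were of this kind. A pair listed in both E12.5 libraries and in no E14.5 library is called lost, and 6657 pairs were of this kind. A further 37187 pairs were listed in all 4.

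All 4 libraries came from embryos that the study calls wild-type and that carried *Wnt1::Cre* and a red fluorescent reporter at the *ROSA* locus, on a mixed C57Bl/6J;CD1 background, with embryos of both sexes pooled. Cre was under the *Wnt1* promoter, which is active in the early neural crest, and the red label therefore marked cranial neural crest cells (CNCCs) and what descends from them. Labelled cells were sorted from micro-dissected pinnae, so epidermis and other cells outside the *Wnt1* lineage were not meant to be included. The pinnae were dissociated with trypsin at E12.5 and with papain at E14.5, and the stage and the enzyme cannot be told apart. The study calls the 2 replicates of each stage biologically independent, but the labels do not say whether they came from separate litters. The error terms measure the spread between these libraries only. The lists hold no expression values, so the identity of the sorted cells could not be checked against marker genes.

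The pinna is the outer part of the external ear, a fold of skin over elastic cartilage. Its mesenchyme descends from neural crest cells of the second pharyngeal arch (PA2), in which *Hoxa2* specifies the identity of the arch. Between these stages the pinna grows from small swellings into a flap, and its mesenchyme begins to form connective tissue and cartilage. Promoter capture Hi-C (PCHi-C) joins fragments of chromatin that are near each other in the nucleus and pulls out those that hold gene promoters (baits), each of which is then paired with its other ends. CHiCAGO gives each pair a score that grows with the excess of reads over the background for its distance, and the lists hold only pairs with a score of 5 or more. An unlisted pair was taken as 0, although its score lies between 0 and that threshold.

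Same-chromosome pairs numbered 134063 to 186248 in the 4 libraries, and the series held 22171 baits. Replicate 2 of E12.5 stood apart. Between chromosomes lay 62.7% of its listed pairs, against 2.64% to 4.52% in the other 3 pinna libraries, and the name of its file says that it was merged. Its same-chromosome pairs were also longer, with 23.9% over 10 Mb against 2.28% to 6.85% in the other 3. The depth of the libraries is unknown, since the lists hold scores and not reads, and a score depends on the depth of its own library. The E12.5 libraries shared 42.9% of the shorter list and the E14.5 libraries 49.5%, and libraries of different stages shared 38.1% to 50.9%, so stage alone did not set how alike 2 lists were.

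The bases just before the start site of 4 genes are shown as examples of loci with gained and lost pairs that are described below. *Thbs2* and *Nppc* lie in baits with many gained pairs, *Hoxa2* in a bait with many lost pairs, and *Mnx1* beside the bait with the most lost pairs. Each sequence holds the 250 bases upstream of the start site, from RefSeq on GRCm38.p6, read 5′ to 3′ on the minus strand, which is the strand of all 4 genes. The positions are chr17:14694263-14694512 for *Thbs2*, chr1:86670574-86670823 for *Nppc*, chr6:52164832-52165081 for *Hoxa2* and chr5:29478471-29478720 for *Mnx1*. Capitals mark the CG dinucleotides.
Thbs2: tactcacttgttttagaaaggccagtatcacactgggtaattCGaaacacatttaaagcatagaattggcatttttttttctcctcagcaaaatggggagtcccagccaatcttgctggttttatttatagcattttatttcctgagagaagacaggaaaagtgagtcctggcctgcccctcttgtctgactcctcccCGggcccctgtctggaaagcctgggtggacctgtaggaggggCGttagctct
Nppc: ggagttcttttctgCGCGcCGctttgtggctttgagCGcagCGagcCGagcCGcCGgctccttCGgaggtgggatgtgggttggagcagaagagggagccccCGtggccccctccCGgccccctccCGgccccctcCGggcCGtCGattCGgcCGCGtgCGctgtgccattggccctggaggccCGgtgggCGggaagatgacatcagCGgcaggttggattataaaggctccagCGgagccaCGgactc
Hoxa2: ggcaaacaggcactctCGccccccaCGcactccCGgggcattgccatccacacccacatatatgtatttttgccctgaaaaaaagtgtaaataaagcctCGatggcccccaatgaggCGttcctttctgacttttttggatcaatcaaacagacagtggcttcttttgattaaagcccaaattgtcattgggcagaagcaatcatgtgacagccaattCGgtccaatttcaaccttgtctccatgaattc
Mnx1: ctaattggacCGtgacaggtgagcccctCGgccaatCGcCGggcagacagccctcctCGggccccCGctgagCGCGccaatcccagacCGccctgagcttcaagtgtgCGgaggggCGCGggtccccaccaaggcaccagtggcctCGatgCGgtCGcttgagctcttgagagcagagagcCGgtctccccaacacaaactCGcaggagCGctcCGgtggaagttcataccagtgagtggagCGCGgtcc

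The sequence of *Thbs2* held 3 CG dinucleotides, that of *Hoxa2* 6, that of *Mnx1* 21 and that of *Nppc* 24. A CG reads the same on both strands. Over all 27025 promoters in the table, the median was 6 (quartiles 2 and 16), and 38.2% held at least 10. Promoters whose start site lay in any bait had a median of 12 (quartiles 4 and 20, 16096 promoters). The median was 14 (quartiles 6 and 22, 537 promoters) in the baits with at least 5 gained pairs, and 11 (quartiles 7 and 19, 71 promoters) in those with at least 5 lost pairs. Both ranges overlapped that of all baits over most of their width.

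Gained pairs were 11.2% of the pairs listed in at least 2 libraries, and lost pairs were 5.11%. They fell on different numbers of baits, with 7606 baits holding a gained pair, 5223 a lost pair and 2748 holding both kinds, where a pair that joins 2 baits counts for each of them. At least 5 gained pairs were found on 657 baits, of which 340 had no lost pair. At least 5 lost pairs were found on 96 baits, of which 31 had no gained pair. Gained outnumbered lost pairs by 2.20 times, and by 2.51 times at a score of at least 10. This ratio follows from which libraries are required: it was 0.235 and 0.455 when replicate 1 or 2 of E12.5 was left out, and 8.57 and 4.29 when replicate 1 or 2 of E14.5 was left out, since a stage left with 1 library needs no second listing.

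Scores were compared with limma on asinh(score) over all 130234 pairs. At an adjusted p below 0.05, 11971 pairs (9.19%) scored higher at E14.5 and 5736 (4.4%) scored lower. Of these, 11897 were gained pairs and 5712 were lost pairs, so nearly all calls restate in which libraries a pair was listed. Only 98 called pairs were listed in all 4 libraries. Among the 71056 pairs listed in at least 3 libraries, limma called 0 (0.0%), with 2575 at an unadjusted p below 0.05. No reading is therefore made of the number of calls for single pairs.

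The number of listed pairs was then counted for each bait. Of 15063 baits with a mean of at least 3 pairs, limma called 0 (0.0%), with 722 at an unadjusted p below 0.05. The groups did not overlap in 2144 baits (14.2%) that were higher in both E14.5 libraries and in 1666 (11.1%) that were lower in both. Within 2 Mb, a limit set after the long pairs of E12.5 replicate 2 had been seen, the shares were 21.4% and 9.14% of 12543 baits, and limma again called 0. The baits described below are accordingly given by their values in each library, and none of them passed this test. Other settings called some of them, and these calls, apart from those with a replicate block, are named with the bait. A setting that leaves out a library leaves its stage with 1, which is then assumed to vary like the 2 libraries of the other stage.

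The distance between the 2 ends did not separate the stages. The share of pairs over 1 Mb was 15.8% and 44.4% at E12.5 (30.1% ± 20.2, SD, n = 2) and 19.8% and 27.7% at E14.5 (23.8% ± 5.64, SD, n = 2). The difference of -6.33 points was smaller than the spread at E12.5 (exact two-sided permutation test over 6 groupings, which cannot go below 0.333: p = 1). Without E12.5 replicate 2, it turned to 7.96 points higher at E14.5. The E12.5 libraries had median distances of 333 and 742 kb, which enclosed those of the E14.5 libraries (352 and 427 kb).

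Gained and lost pairs both reached farther than the pairs listed in all 4 libraries. The median distance was 331 kb for gained pairs (quartiles 171 and 677 kb), 373 kb for lost pairs (quartiles 204 and 696 kb) and 258 kb for pairs in all 4 (quartiles 140 and 471 kb). Pairs over 1 Mb were 16.7% of gained, 15.6% of lost and 7.79% of pairs in all 4. Pairs listed in at least 2 libraries lay nearer to the gained and lost ones. Their median was 314 kb (quartiles 167 and 607 kb), with 13.3% over 1 Mb. Pairs in all 4 also scored higher, with a median of 8.73 against 6.26 for gained and 6.06 for lost pairs. In every bin of distance gained pairs outnumbered lost ones, by 1.73 times over 10 Mb to 3.18 times between 2 and 10 Mb. Pairs between 2 baits made up 11.0% of the gained and 16.3% of the lost pairs.

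**Figure D1:**
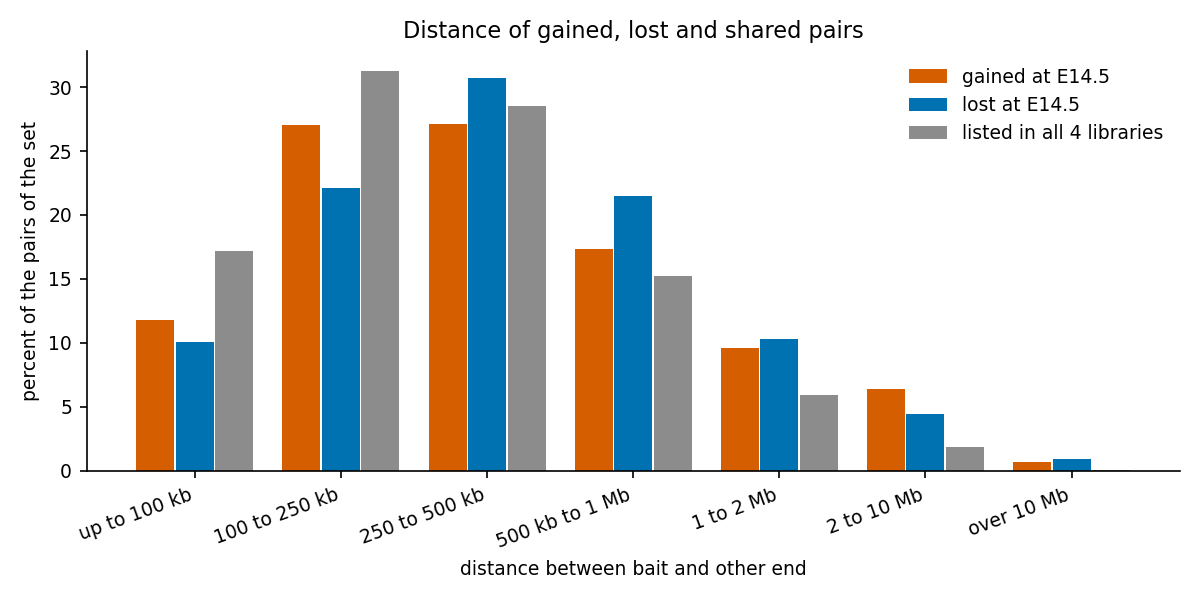
Distance between bait and other end (bins, horizontal axis) as the percentage of the gained, lost and shared pairs (vertical axis), with 1 bar for each set. Gained and lost pairs hold larger shares than pairs in all 4 libraries in every bin over 500 kb, and lost pairs a larger share than gained ones between 250 kb and 2 Mb.

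Lost pairs between genes of transcription factors stood out in the lists. The families taken were homeobox, paired box, T-box, forkhead, Sox, Zic, Gata and related genes, 294 protein-coding genes in all, many of which are held silent by Polycomb in cells that do not use them. The families were chosen after the values had been seen, so no test is given. A pair was counted where its 2 ends lay within 10 kb of start sites of 2 different genes of the families. The E12.5 libraries held 534 and 443 such pairs, and the E14.5 libraries held 197 and 161. Both E12.5 libraries lay above both E14.5 libraries, by 1.45 on the log2 scale of the group means, where the replicates spread by 0.20 (SD). Without E12.5 replicate 2, the difference was 1.58.

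The number was larger still at E10.5. The E10.5 libraries held 733 and 773 such pairs in PA2, 666 to 862 in the other wild-type processes of the face, and 512 and 586 in PA2 of the *Hoxa2* knockout. By number, the wild-type E10.5 libraries lay above E12.5, and E12.5 above E14.5, with no overlap. Per 10000 same-chromosome pairs, which takes the size of each list into account, PA2 had 52.1 and 53.3, the other wild-type E10.5 libraries 38.4 to 56.9, E12.5 pinna 39.8 and 23.8, and E14.5 pinna 13.5 and 8.84. The knockout libraries had the shortest lists of the series. By this rate they lay below both wild-type PA2 libraries but within the range of the other wild-type libraries of that stage. Their lower raw numbers are therefore not read as an effect of the knockout. On this scale E10.5 and E12.5 overlapped, since Md replicate 1 (38.4) lay below E12.5 replicate 1, while E14.5 stayed below both. Tissue was dissociated with trypsin at E10.5 and E12.5 and with papain at E14.5 only. Stage and enzyme therefore cannot be told apart here either.

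The lower number at E14.5 was seen in each class of these pairs that was counted, but not for every gene. Over 1 Mb there were 192 and 204 pairs at E12.5 against 46 and 57 at E14.5. Within 1 Mb there were 342 and 239 against 151 and 104. With the *Hox* and *Evx* genes left out, there were 327 and 311 against 97 and 118. With a score of at least 10, there were 174 and 145 against 43 and 38. In each of these classes both E14.5 libraries lay below both E12.5 libraries, also with E12.5 replicate 2 set aside. By gene, 154 had such a pair, of which 87 were lower with no overlap, 0 were higher and 67 overlapped. Among the last were *Irx3* (14 and 16 pairs, then 16 and 17) and *Irx5* (13 and 16, then 15 and 17). Some of the 87 rest on very few pairs, such as *Gsx2* and *Hmx1* (1 and 1, then 0 and 0 for each). A pair counts for every gene of the families near its ends. Neighbours such as the *Hox* genes thus share pairs, and the 87 genes are not independent. With all pairs of each bait counted, 61 of 238 baits of the families were lower (25.6%) and 25 higher. Over all baits, 11.1% were lower and 14.2% higher.

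**Figure D2:**
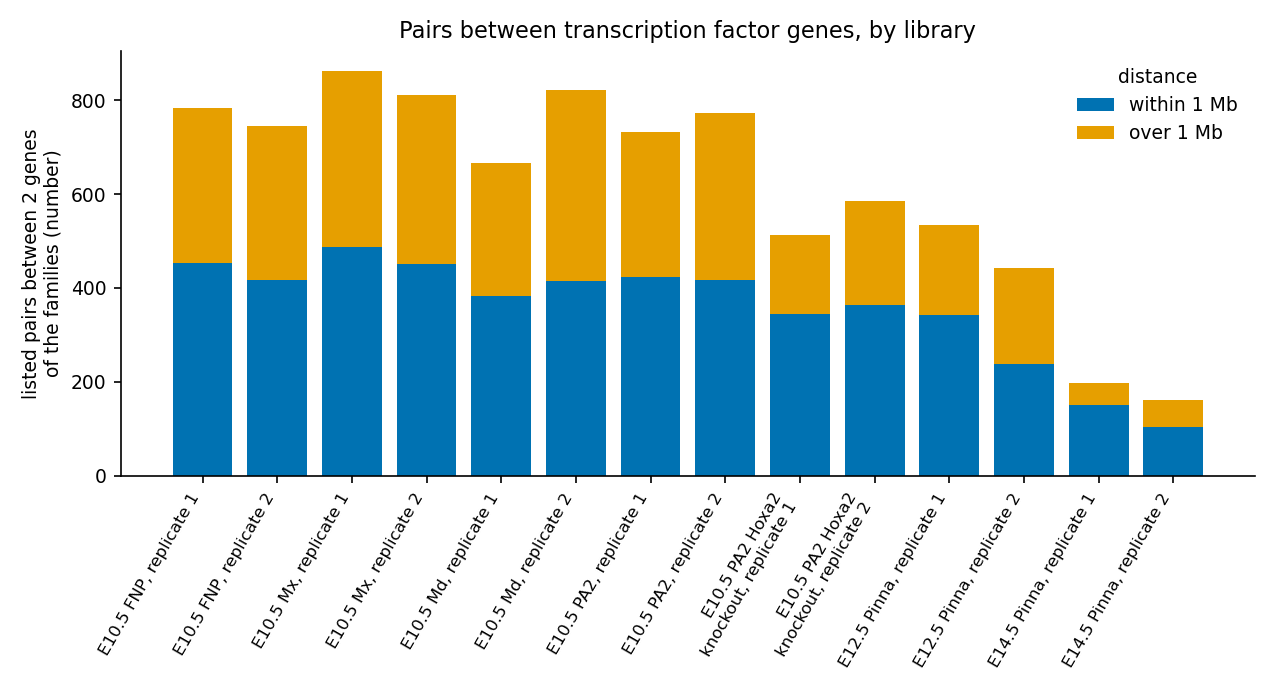
Same-chromosome pairs between 2 genes of the transcription factor families in each of the 14 libraries, as stacked bars of the number within and over 1 Mb. The totals are 733 and 773 in E10.5 PA2, 534 and 443 in E12.5 pinna, and 197 and 161 in E14.5 pinna, the lowest of all libraries.

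Of the 337 pairs of this kind listed in at least 2 of the pinna libraries, 114 were lost (33.8%, against 5.11% of all pairs) and 0 were gained (against 11.2%). Where only 1 end lay by such a gene, 7.52% of 5771 pairs were lost and 8.68% were gained. Among the 114 lost pairs, 82 were listed in both E10.5 PA2 libraries and 5 in no E10.5 library. They were listed in a median of 9 of the 10 E10.5 libraries, against 3 for all lost pairs. The lost pairs joined 37 times *Hox* or *Evx* genes to each other and 77 times other genes of the families.

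The bait with the most lost pairs in the comparison lay beside a gene of these families. It lies on chromosome 5 (29480908 to 29483337), holds the start site of the predicted gene *Gm24538*, and neighbours *Mnx1*, the homeobox gene of motor neurons and pancreas whose promoter is printed above. It was listed with 36 and 38 pairs at E12.5 and with 6 and 8 at E14.5, against 47 to 59 in the wild-type libraries at E10.5. The difference was -2.28 ± 0.38 (log2, SE; limma, adjusted p = 0.364), and both E14.5 libraries lay far below both E12.5 libraries. Fitted together with the 8 wild-type E10.5 libraries, it passed limma's test (adjusted p = 0.000675), as it did on summed scores (0.0331).

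All 15 lost pairs of this bait spanned over 1 Mb. Their ends fell by *En2*, the homeobox gene of the midbrain and hindbrain border, with 8 pairs at 1.30 to 1.36 Mb, and by *Shh*, the secreted Hedgehog ligand, with 3 pairs at 1.01 to 1.02 Mb. The strongest, by *En2*, had scores of 25.7 and 15.2 at E12.5 and was unlisted at E14.5. In the opposite view, the *En2* bait was paired with the fragment at *Mnx1* with scores of 25.9 and 12.8 at E12.5, 0 and 0 at E14.5, and was listed in all 10 libraries at E10.5. A single lost pair reached *Pdx1*, a homeobox gene of the pancreas, 117.8 Mb away, with scores of 8.01 and 13.3, and was absent from both PA2 libraries. Most lost pairs of the *Gm24538* bait were not counted among those of the families, since an end lay over 10 kb from their start sites. Between *En2* and *Mnx1*, 3 lost pairs were counted, with that of the *En2* bait included.

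The bait of *Gm20467* on chromosome 19 lies beside *Nkx2-3*, a homeobox gene of gut and spleen mesoderm. It was listed with 28 and 20 pairs at E12.5 against 6 and 2 at E14.5. Its 11 lost pairs ended by *Pax2* (4 pairs), *Lbx1* (4) and *Tlx1* (2), which encode factors of kidney and inner ear, of migrating muscle precursors and of spleen, and by *Hpse2* (1). Of these pairs, 9 were listed in both PA2 libraries. Limma called the bait in the fit with the wild-type E10.5 libraries (adjusted p = 0.0254) and without E14.5 replicate 1 (0.00702). The bait of *Gm14114* on chromosome 2, with 29 and 29 pairs at E12.5 but 7 and 8 at E14.5, lost 9 pairs, all listed in both PA2 libraries. These ended by *Foxa2* (5 pairs, 1.19 to 1.20 Mb away), *Nkx2-4* (2), *Nkx2-2* (1) and *Pax1* (1), genes of floor plate, forebrain and sclerotome. This bait was called in the fit with the wild-type E10.5 libraries (limma, adjusted p = 0.0112). Its nearest protein-coding gene was *Kiz*, 15.2 kb from its middle, so its pairs were not counted among those between genes of the families.

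The *Zic2* bait joined the midline and forebrain factor to genes far along chromosome 14. It had 48 and 41 pairs at E12.5 and then 17 and 22 at E14.5, and 12 of them were lost. Among these were 3 pairs with *Otx2*, the forebrain homeobox gene 73.8 Mb away, 1 with *Gata4* at 59.2 Mb and 2 with *Sox21* at 4.24 to 4.25 Mb. The highest pair with *Otx2* scored 12.54 and 11.36. A bait at *Otx2* listed a contact with *Zic2* from its own side. Other lost pairs joined *Tbx5* with *Tbx3* at 162 kb (21.0 and 13.0) and *Foxa1* with *Nkx2-9* at 931 kb (12.8 and 15.6). The pair of *Zic1* and *Zic4* with *Tbx20*, 66.6 Mb apart, scored 18.6 and 15.6 at E12.5 and was in no E10.5 library.

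The *Hox* clusters did not move as a whole. In the *Hoxb* cluster, the *Hoxb13* bait at its far 5′ end had 33 and 20 pairs at E12.5 against 6 and 2 at E14.5, and 9 of its 11 lost pairs ended by *Hoxb9*, *Hoxb4*, *Hoxb3* or *Hoxb2*, within the cluster. Limma called it in the fit with the wild-type E10.5 libraries (adjusted p = 0.037) and without E14.5 replicate 1 (0.00401). The *Hoxb6* bait had instead 19 and 10 pairs at E12.5 but 25 and 33 at E14.5, with 8 gained and 0 lost pairs. The *Hoxc6* bait had 13 gained pairs and 1 lost pair, with counts that overlapped between the stages (85 and 48, then 109 and 80). Genes of a cluster lie so close together that their fragments are neighbours, and their pairs are not independent.

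The *Hoxa2* bait (chromosome 6, 52162863 to 52166906) had 47 and 60 pairs at E12.5 and then 25 and 31 at E14.5, against 30 to 50 in the wild-type E10.5 libraries. The lower value at E14.5 was separated from E12.5 (exact two-sided permutation test at its lowest possible p, 0.333), and the difference was -0.93 ± 0.30 (log2, SE; limma, adjusted p = 0.993). It lost 14 pairs, gained 2 and kept 16 in all 4 libraries. All 14 lost pairs lay on the side of *Nfe2l3* and *Npvf*, 1005 to 1488 kb away, and the 2 gained pairs lay just short of them, at 961 and 965 kb. Of the 14, 4 were listed in both PA2 libraries and 8 in neither.

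Other lost pairs lay close to genes of the neural crest. *Pax3*, a paired box factor of neural crest and pigment cells, had 53 and 47 pairs at E12.5 against 20 and 19 at E14.5, below the 53 to 85 of E10.5. Of its 10 lost pairs, 9 lay on the same side within 51.1 to 255 kb, and the highest scored 14.48 and 10.99. *Twist1*, a factor of mesenchyme and cranial sutures, had 30 and 32 pairs at E12.5 but 12 and 22 at E14.5, with 9 lost pairs toward *Hdac9* at 171 to 681 kb. For *Twist1* the E14.5 counts were near those of E10.5 (17 to 27), while E12.5 lay above them.

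Several baits of matrix, growth and signalling genes had more gained than lost pairs. *Thbs2*, which encodes the matrix glycoprotein thrombospondin-2, is on chromosome 17 (14691264 to 14695051). Its bait had 2 and 7 pairs at E12.5 and then 47 and 34 at E14.5, against 0 to 5 in the wild-type E10.5 libraries. The 2 stages were far apart, with a difference of 3.05 ± 0.47 (log2, SE; limma, adjusted p = 0.259, and 0.0894 for pairs within 2 Mb). It passed limma's test without E12.5 replicate 2 (adjusted p = 0.0481), without E14.5 replicate 2 (0.00204), on summed scores (0.0331) and with baits of at least 1 pair (0.0127), and not without E12.5 replicate 1 (0.463) or E14.5 replicate 1 (0.125), so the call depends on which library is left out.

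The 19 gained pairs of *Thbs2* lay on both sides of the promoter printed above, 10 toward lower and 9 toward higher coordinates, at 65.2 to 225 kb. None of the 19 was listed in either PA2 library. Their scores were low to moderate, from 5.17 to 12.1 in E14.5 replicate 1 and from 5.10 to 11.0 in replicate 2. No lost pair was found on this bait.

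*Nppc* encodes C-type natriuretic peptide, which promotes the growth of cartilage. Its bait had 35 and 38 pairs at E12.5, 65 and 73 at E14.5 and 34 to 45 at E10.5, so E14.5 alone stood high. The difference was 0.88 ± 0.28 (log2, SE; limma, adjusted p = 0.993). Of its 20 gained pairs, 19 lay on the same side, within 543 kb, 9 of them by *Dis3l2* and 7 by *Alppl2*. Only 2 were listed in both PA2 libraries.

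*Fosl2*, a component of the AP-1 factor active in bone and cartilage, had 48 and 59 pairs at E12.5 but 94 and 92 at E14.5, against 46 to 59 at E10.5. Its 24 gained pairs all lay on the same side at 156 to 607 kb, and 21 of them ended by *Babam2*. The bait of *Gm10463*, which directly neighbours it, had 39 and 29 pairs and then 67 and 79, so the pairs of the 2 baits are not independent. *Wnk2*, a kinase gene, had 5 and 7 pairs at E12.5, 37 and 29 at E14.5 and 5 to 12 at E10.5, with 19 gained pairs at 66.7 to 310 kb, all on the same side, and was called in the fit with the wild-type E10.5 libraries (limma, adjusted p = 0.0413).

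Of the matrix genes, *Omd*, which encodes osteomodulin, had 18 and 45 pairs at E12.5 but 52 and 66 at E14.5, and the E12.5 replicates differed widely. Its 14 gained pairs stayed within 29.0 to 152 kb, and 5 ended by *Aspn*, 3 by *Ecm2* and 1 by *Ogn*, the neighbouring genes for related small proteoglycans and matrix proteins. *Col3a1*, for the fibrillar collagen of skin and vessels, had 29 and 40 pairs and then 49 and 59, with 11 gained pairs on the same side at 268 to 504 kb. *Eln*, for elastin, had 11 and 24 and then 33 and 39, with 7 gained pairs. *Lamb2*, for a laminin chain, had 3 and 10 and then 19 and 21, with 9 gained pairs. None of *Omd*, *Col3a1*, *Eln* and *Lamb2* had a lost pair.

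Of the signalling genes, *Jag1*, a Notch ligand, had 15 and 14 pairs at E12.5 and then 35 and 40 at E14.5, but 15 to 35 at E10.5. *Fgf10*, a mesenchymal growth factor, had 14 and 24 and then 31 and 40, against 5 to 17 at E10.5, with 9 gained pairs on both sides at 287 to 665 kb. *Fgfr1*, a receptor of this family, had 38 and 39 and then 48 and 59, with 10 gained pairs. *Bmp5*, the gene mutated in the short-ear mouse, had 24 and 26 and then 32 and 42, with 6 gained pairs at 350 to 1601 kb. Each of these 4 baits lay higher in both E14.5 libraries and had 0 lost pairs, and none of them passed the test. They do not stand for all signalling genes. In the list of signals and receptors, 17 of 49 baits (34.7%) were higher and 6 (12.2%) lower, with 33 lost pairs. Over all baits the shares were 14.2% and 11.1%.

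**Figure D3:**
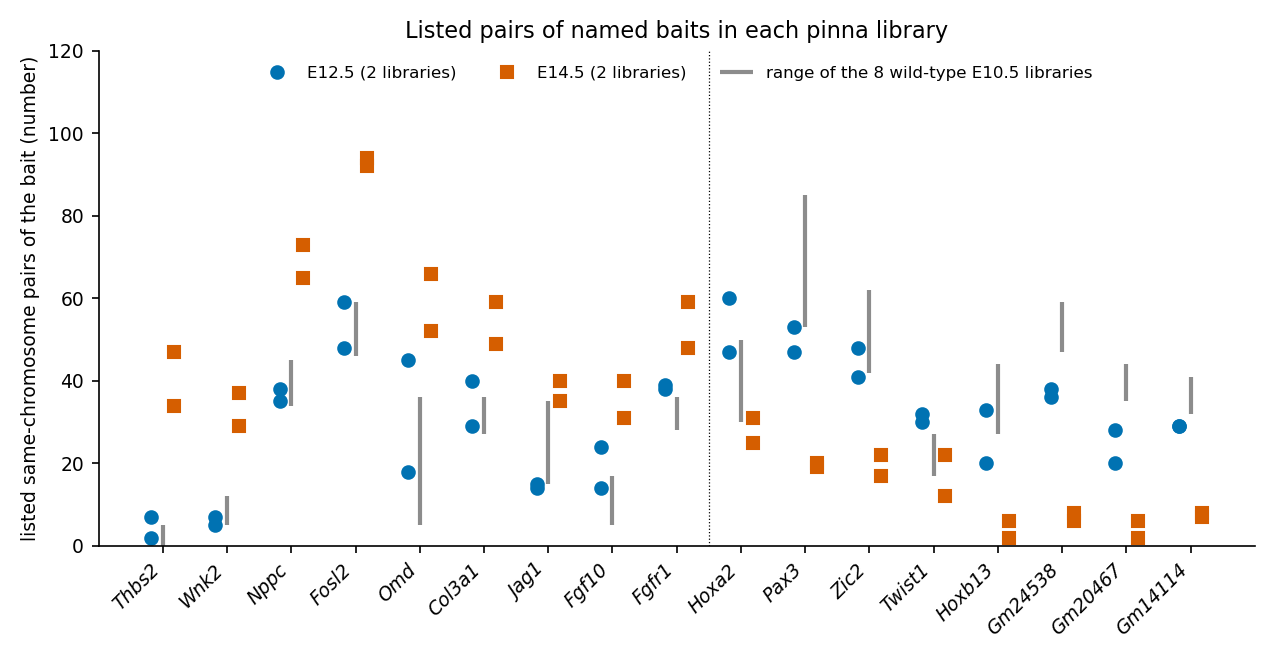
Listed same-chromosome pairs (vertical axis, number) of named baits, with each library of E12.5 as a circle and of E14.5 as a square, and the range of the 8 wild-type E10.5 libraries as a grey bar. To the left of the dotted line both squares lie above both circles, as for *Thbs2* (2 and 7, then 47 and 34), and to its right below them, as for *Gm24538* (36 and 38, then 6 and 8).

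**Figure D4:**
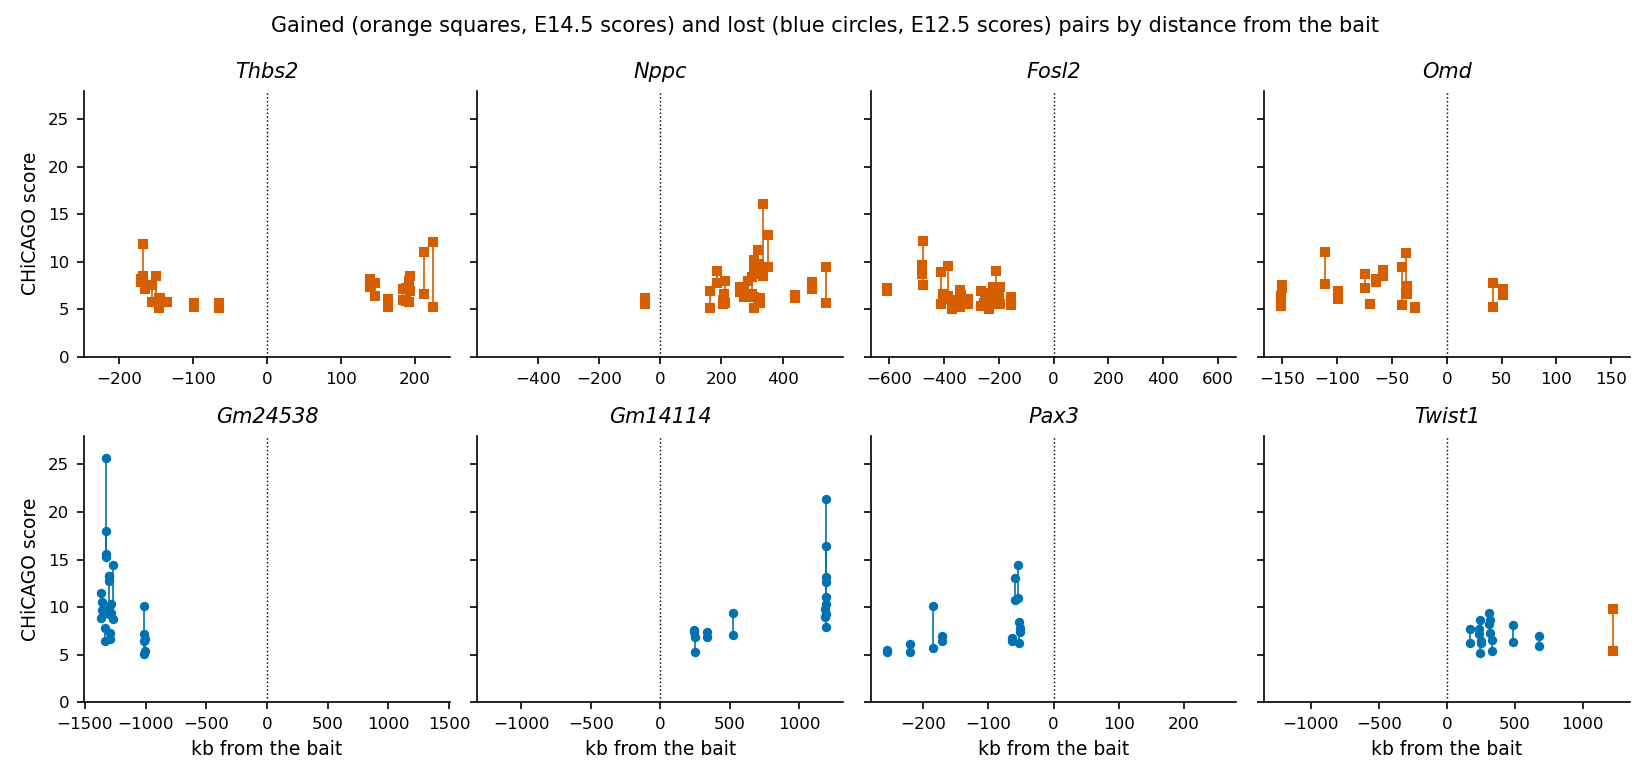
CHiCAGO scores (vertical axis) of the gained and lost pairs of 8 baits by their distance from the bait in kb (horizontal axis), with squares for gained pairs at E14.5, circles for lost pairs at E12.5, and a line joining the 2 replicates of a pair; pairs farther than the axis reaches are not drawn. Gained pairs lie on both sides of *Thbs2* and nearly all on the same side of *Nppc* and *Fosl2*, and those lost from *Gm24538* lie over 1 Mb away.

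The bait with the most gained pairs, *Adam17*, which encodes a protease that sheds growth factors from the cell surface, followed another course. It had 19 and 13 pairs at E12.5 against 72 and 132 at E14.5, but 78 to 175 in the wild-type E10.5 libraries, so E12.5 alone stood low. Of its 46 gained pairs, 32 were listed in both PA2 libraries and 2 in neither. The difference was 2.54 ± 0.37 (log2, SE; limma, adjusted p = 0.259). It passed limma's test in the fit with the wild-type E10.5 libraries (adjusted p = 0.00295), without E14.5 replicate 1 (0.00401), on summed scores (0.0331) and with baits of at least 1 pair (0.0127). Another bait of *Adam17* differed less, by 1.08 (log2; limma, adjusted p = 0.993). Neighbouring baits of *Cpsf3* were also among those with the most gained pairs, with 23 and 20.

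Other baits with many gained or lost pairs belonged to neither group of genes, and several had most of their pairs at long range. *Zik1*, a zinc finger gene, had 33 gained and 11 lost pairs, and 173 and 401 pairs at E12.5 against 265 and 360 at E14.5. Within 2 Mb it had only 18 and 35 and then 35 and 32. *Zfp324*, another zinc finger gene, had 12 of each kind, with 137 and 210 pairs and then 128 and 270, but 66 and 59 and then 46 and 55 within 2 Mb, where it was lower in both E14.5 libraries. *Chordc1*, for a chaperone-binding protein, had 20 gained and 10 lost pairs (128 and 179, then 151 and 185), of which few lay within 2 Mb (11 and 22, then 10 and 8). *Fam19a2*, for a secreted chemokine-like protein, had 21 gained pairs and 1 lost pair (76 and 123, then 133 and 191), and the bait shared by *Chmp2a*, *Trim28* and *Ube2m* had 22 and 1 (63 and 119, then 122 and 151).

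The bait of *Rpl15-ps2*, a pseudogene whose reads may be shared with its parent gene, had 11 and 9 pairs and then 36 and 56, with 12 gained, and was called in the fit with the wild-type E10.5 libraries (limma, adjusted p = 0.0434). On the lower side, *Mab21l1* and *Nbea*, which share a bait, had 37 and 42 pairs and then 17 and 22, with 12 lost pairs at 183 to 413 kb and 0 gained. *Nol6*, a gene of ribosome assembly, had 52 and 67 and then 29 and 16, with 11 lost pairs. *Otp*, a homeobox gene of the hypothalamus, had 17 and 16 and then 2 and 4, with 3 lost pairs, and was called in that fit too (limma, adjusted p = 0.0112). *Sp1*, a broadly expressed factor, had 14 and 13 and then 2 and 2, with 1 lost pair. The baits of *Carmil1* and *Gm23364* and the bait shared by *Eif5a* and *Gps2* had 9 lost pairs each and 5, 4 and 1 gained.

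Among the pairs called by limma, the strongest differences in score lay on a bait of histone genes. This ranking leaves out uncalled pairs with high scores, such as that of *Gm24538* by *En2* (25.66 and 15.22 at E12.5, then unlisted). The bait of *Hist1h2bh* and *Hist1h3f* had 1 and 1 pairs at E12.5 but 12 and 22 at E14.5. In the wild-type E10.5 libraries it had 0 to 17, with a median of 1. Its pair with *Hist1h2ag* and *Hist1h4i* at 1.503 Mb scored 0 and 0 and then 34.0 and 124. On summed scores the bait was called (limma, adjusted p = 0.0012). The copies of these genes are nearly identical. Whether reads of 1 copy were placed at another was not tested, so the values are uncertain. In the opposite direction, *Padi2* had a lost pair with a fragment at *Nfia*, 43.0 Mb away, with scores of 24.98 and 26.92 at E12.5. The other pairs among the 10 with the largest called difference joined *Klhl28* with a fragment nearest *Mia2*, *Zmynd11* with one at *Larp4b*, *Ido2* with one at *Gins4* and *Kdm4b* with one nearest *Catsperd*, all gained, and *Gm14808* with one nearest *Efnb1*, which was lost.

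Over the gene lists, limma called 0 baits. In each list the counts are of baits whose libraries did not overlap between stages, to be read against 14.2% higher and 11.1% lower over all baits. Of 49 baits of signals and receptors, 17 were higher at E14.5 and 6 lower, with 100 gained and 33 lost pairs. Of 28 baits of cartilage, 5 were higher and 2 lower, with 48 gained and 17 lost pairs. Of 34 dermal and connective baits, 8 were higher and 5 lower, with 80 and 44 pairs. Of 16 bone baits, 3 were higher and 2 lower, with 28 and 14 pairs. Their median differences (log2) were 0.13, 0.14, 0.04 and 0.06, beside a median of -0.01 over all baits. *Sox9*, the main factor of cartilage, had 13 and 14 pairs and then 15 and 25, with 2 gained. *Acan*, for the cartilage proteoglycan aggrecan, had 6 and 8 and then 9 and 14, with 2 gained. These 2 genes do not stand for the cartilage list, in which 2 baits were lower. The median of that list was -0.02 without E12.5 replicate 2.

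On the other side, 2 of 38 baits of the *Hox* clusters were higher and 11 lower, with 97 gained and 108 lost pairs and a median of -0.18. In this list, only E12.5 replicate 1 stood high (0.32 above the mean of the 4 libraries), and the other 3 lay at -0.06 to -0.13. Of 35 baits of external ear patterning, 5 were higher and 6 lower, with 58 gained and 76 lost pairs and a median of -0.13. *Hand2*, a factor of the pharyngeal arches in this list, had 38 and 45 pairs and then 63 and 59, with 7 gained and 0 lost. *Eya1*, mutated in a syndrome with ear malformation, overlapped between the stages, with 10 and 14 and then 9 and 11 pairs.

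Lists of other cell types were small. Of 11 baits of glia, pigment and neuron, 2 were higher and 4 lower, with a median of -0.44 and 5 gained and 16 lost pairs. Of 6 epidermal baits, 1 was higher and 2 lower, among them *Krt5* (21 and 22, then 10 and 10, with 5 lost pairs). In the lists of endothelium (7 baits), blood (6) and muscle (4), 0 were higher and 1 in each was lower. Of 19 housekeeping baits, 2 were higher and 3 lower. Whether other cells took part in the differences above was not tested, since contacts give no measure of cell numbers.

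Families of matrix genes (collagens, laminins, proteoglycans and others, 108 genes), chosen after the values had been seen and so given with no test, had 23 of 77 baits higher (29.9%) and 4 lower (5.19%), with 184 gained and 47 lost pairs. For the transcription factor families, 25 of 238 baits were higher and 61 lower (25.6%), with 365 gained and 432 lost pairs. The median over baits of the matrix families lay at 0.01 and -0.20 from the mean of the 4 libraries at E12.5 and, above both, at 0.08 and 0.15 at E14.5, with E12.5 replicate 2 farthest out. That of the transcription factor families lay high in E12.5 replicate 1 alone (0.28, against -0.03 in replicate 2, and -0.14 and -0.02 at E14.5), and the stages overlapped.

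**Figure D5:**
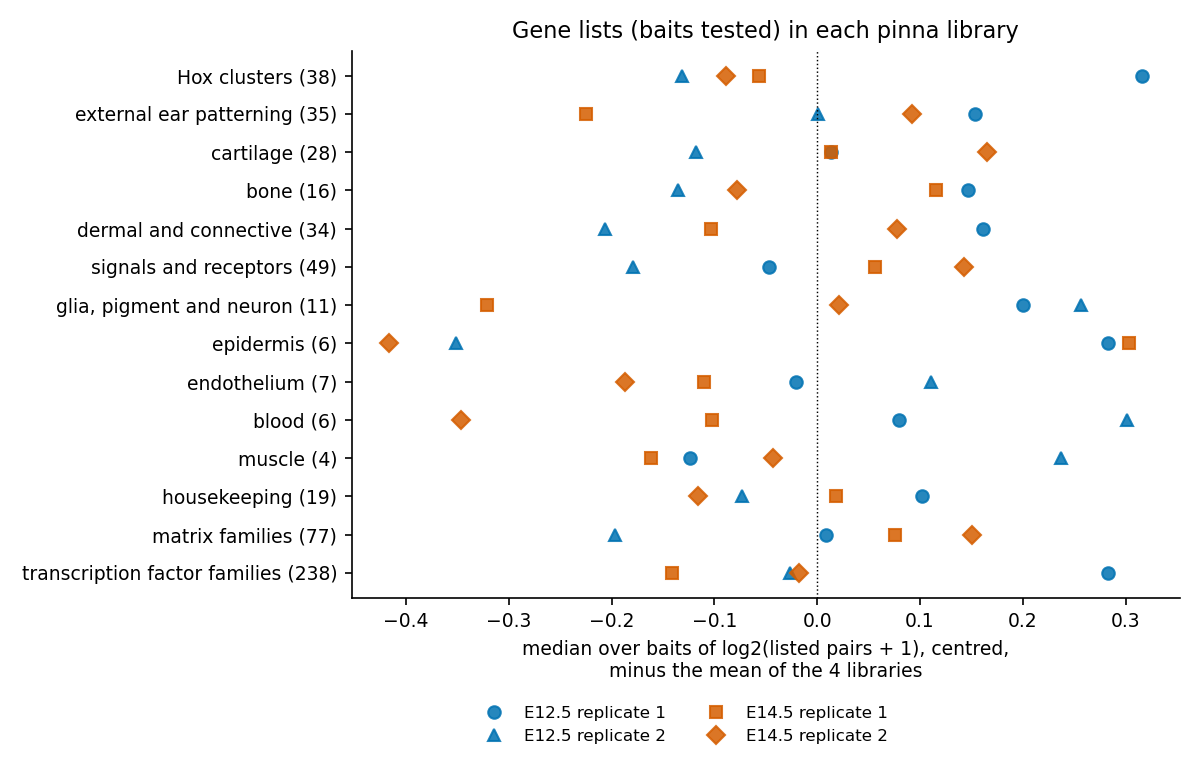
Median over the tested baits of each gene list (their number in brackets) of log2(listed pairs + 1), centred in each library and given as the deviation from the mean of the 4 libraries (horizontal axis), with 1 symbol per library. E12.5 replicate 1 stands high for the *Hox* clusters (0.32) and the transcription factor families (0.28), while for signals and receptors both E14.5 libraries lie above both E12.5 libraries.

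The other ends of gained and lost pairs were much alike in sequence. A CTCF-like motif, CCANNAGNNGGC on either strand, occurred in 26.9% of the other ends of gained pairs, 28.7% of lost pairs, 31.8% of pairs in all 4 libraries and 13.0% of all HindIII fragments. Captured ends were longer than the average fragment, and per 10 kb the values were 1.02, 1.04, 1.14 and 0.525. The GC content was 44.4%, 44.0%, 45.1% and 41.2% in the same order. Gained and lost pairs differed by far less from each other than either did from all fragments.

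Lost pairs were more often present earlier in development than gained pairs were. Both E10.5 PA2 libraries listed 22.4% of the lost and 14.99% of the gained pairs, against 72.6% of pairs in all 4 pinna libraries. In each of the 10 E10.5 libraries taken singly, the share of lost pairs listed exceeded that of gained pairs, for example 36.7% and 37.0% against 28.9% and 30.4% in PA2. No E10.5 library listed 24.2% of the gained and 19.2% of the lost pairs. The median score was 6.26 for gained, 6.06 for lost and 8.73 for pairs in all 4 libraries, so gained and lost pairs lay near the threshold of 5. A neighbouring fragment was in the same set for 10.6% of gained, 5.48% of lost and 58.3% of the pairs in all 4.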

How the data were processed

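PCHi-C lists of 4 pinna libraries were used, with 10 libraries of E10.5 beside them. Per the study's methods, reads were mapped to mm10 and filtered with HiCUP, and the authors deposited for each library the pairs of HindIII fragments with a CHiCAGO score of at least 5. This score comes from p-values weighted by distance, so it is no count, and it depends on depth. The submitters' notes name bcl2fastq 2.17. Start sites (GENCODE) inside a bait named it. Members and lists were chosen with earlier results of these data known. Scores were compared with limma 3.58.1 (R 4.3.3) on asinh(score), over pairs listed in at least 2 of 4 libraries, and listed pairs per bait with limma on log2(pairs + 1), centred on the median of each library, for baits with a mean of at least 3 pairs. A pair joining 2 baits counted for each. The p-values were adjusted by Benjamini-Hochberg over all features tested, and single values had two-sided exact permutation tests. The limma step on baits was tested on simulated data, and the step on pairs only for pairs listed in at least 3 libraries. Named genes were list members, the 10 baits with most gained and most lost pairs, the 10 pairs with the largest called difference, and the 5 baits with the smallest p in each direction. Other named pairs and *Gm20467* neighbours were chosen after their values were seen. Alternatives changed the threshold, filters, scale, libraries and distance. Counts and sequences were handled with Python 3.11.15 and pandas 2.3.3. No paired design is given by the labels.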

Additional observations from a re-analysis of the deposited data

Results flagged for a closer look

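Pairs between different chromosomes were outside the comparison. Among them, pairs between genes of the transcription factor families numbered 18 and 84 in E12.5 replicates 1 and 2, against 3 and 2 at E14.5, and were singled out because both E12.5 libraries lay above E14.5 in data that the comparison did not use. The wild-type E10.5 libraries held 65 to 109 such pairs and the *Hoxa2* knockout libraries 22 and 22. Replicate 2 of E12.5 listed 313037 pairs between chromosomes in all, against 3519 in replicate 1 and 3752 and 8295 at E14.5, so that these pairs were 0.0268% of its total, 0.512% in replicate 1, and 0.08% and 0.0241% at E14.5. By share, E12.5 replicate 2 thus lay within the range of E14.5, and the cause was not tested.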

How the results depend on the processing

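Gained pairs numbered 2130 at a score threshold of 10, 7623 with no neighbouring fragment in the other stage, and 24315 to 91369 when a library was left out; lost pairs numbered 850, 3514 and 10658 to 107082. Pairs called by limma numbered 2697 at a threshold of 10, 0 when listed in at least 3 of 4 libraries, 0 when listed in at least 1, 0 without asinh, 0 after quantile normalization, 7444 with all 12 wild-type libraries, 4268 in 50 kb windows, and 0 to 0 with a library left out. Baits called numbered 4 on summed scores, 2 with a mean of at least 1 pair, 16 with 12 libraries, and 0 to 5 with a library left out. Replicate numbers share only a number (r = 0.19 between same-numbered deviations over 15063 baits); with the replicate block, 12656 pairs and 68 baits were called. The share of pairs over 1 Mb ranged from -20.6 to 7.96 points with a library left out and reversed to 7.96 without E12.5 replicate 2. Baits called in the gene lists ranged from 0 to 1 with a library left out. Pairs between transcription factor genes differed by -1.97 (log2) at a threshold of 10, -1.95 over 1 Mb, -1.19 within 1 Mb, and -1.60 to -1.30 with a library left out. The *Hoxa2* bait stayed lower at E14.5 in the 7 settings run. Of 83 list medians, 15 changed sign. The cause was not tested for any of these. With 2 libraries per stage no permutation test can go below 0.333, and an unlisted pair gives only an upper bound on its score.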
